A study of Homo sapiens with 15 samples.

Results

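The genes described here encode the subunits and assembly factors of oxidative phosphorylation. They were taken by name: every probe set whose single gene symbol starts with NDUF, UQCR or ATP5, or with COX and a digit, or is CYC1 or a gene of a succinate dehydrogenase subunit. On the Affymetrix U133 Plus 2.0 array this rule found 199 of 54675 probe sets, which name 104 of 19775 gene symbols. The rule itself uses no measured value, although it was chosen with earlier results of these data known. A filter on low signal left 168 probe sets and 95 symbols to test, 92 of them protein-coding: 33 complex I subunits, 8 complex I assembly factors, 3 complex II subunits, 7 complex III subunits, 14 complex IV subunits, 10 complex IV or supercomplex assembly factors, 16 ATP synthase subunits and the ATP synthase inhibitor ATP5IF1.

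Oxidative phosphorylation is carried out in the inner mitochondrial membrane. Complexes I and II pass electrons from NADH and succinate to coenzyme Q, complex III hands them on to cytochrome c, and complex IV reduces oxygen. Complexes I, III and IV pump protons, and ATP synthase (complex V) uses the proton gradient to make ATP. Most subunits are encoded in the nucleus and imported, a few are encoded in mitochondrial DNA, and assembly factors help to build each complex without being part of it. Neurons rely on this pathway for most of their ATP.

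The samples are 15 total RNA preparations of IMR32 cells, a human MYCN-amplified neuroblastoma line, with 3 arrays at each of 5 times. All 15 carry the same elements: a tetracycline repressor behind a CMV promoter and a hairpin against CDK2, a cyclin-dependent kinase of the G1 to S transition, which doxycycline at 100 ng/ml switches on. The groups are cells 0, 8, 24, 48 and 72 h after doxycycline, where the unit of time comes from knowledge of the study and not from the labels. The line is a single clone, and no untreated cells at the later times are among the samples, so hairpin, doxycycline and time in culture cannot be told apart. Whether the 3 arrays within a group are separate cultures is not stated, and the p-values below then cover the spread among arrays, which may be technical.

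CDK2 itself, the target, had signals of 245.5, 236.0 and 213.7 at 0 h, 100.8, 92.6 and 90.2 at 8 h, 81.0, 87.8 and 72.4 at 24 h, 52.7, 53.0 and 40.1 at 48 h and 30.0, 40.0 and 20.2 at 72 h. Its arrays at every later time lay below all 3 arrays at 0 h. Markers of noradrenergic neuroblastoma were present, with a summed signal of 13057 to 14025 at 72 h and 10656 to 11041 at 0 h over 10 genes, although TH, the first enzyme of catecholamine synthesis, was near 0 (averages of 3.7 and 0.6). The summed signal of 6 fibroblast markers was 623.4 to 904.2 at 72 h and 260.5 to 465.6 at 0 h, of which LUM averaged 346.3 and 13.7, while COL1A2 averaged 7.4 and 13.6. The 4 immune markers measured summed to at most 41.4 on any array. The part of these levels in the results below was not tested, and in these bulk samples fewer cells of a type and less RNA per cell cannot be told apart.

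Values are MAS5 signals, a linear intensity per probe set that the authors had scaled to a common mean on every array. Tests used limma on log2(signal + 16), so every log2 change below is on that scale, which understates the change of dim probe sets. For each gene the brightest probe set past the filter was tested, and a gene is called where its adjusted p (Benjamini-Hochberg over all 11774 genes tested) is under 0.05. The probe sets of these genes are bright: the median signal of the 95 was 1351, against 160.3 over all genes tested, and 61 of them lay in the brightest 10% of genes. Signals of different probe sets also differ with the probes, so brightness describes the probe sets and not transcript levels, and transcript levels are compared only within a probe set.

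Promoter sequences are shown because nuclear genes of this pathway share short promoter elements and because the members split into a rising and a falling group. RefSeq promoters (GRCh38.p14, the 250 bases before the annotated start) were matched by symbol to 85 of the 104 members. SDHD (chr11:112086623-112086872, plus strand) and NDUFA6 (chr22:42090773-42091022, minus strand) were called lower at 72 h, and ATP5MC2 (chr12:53676084-53676333, minus strand) and COX10 (chr17:14069254-14069503, plus strand) were called higher. Each runs 5′ to 3′ on the strand of its gene. Capitals mark GCATGCG, the core of the site bound by NRF1 (nuclear respiratory factor 1), or CCGGAAG, the core bound by ETS family factors such as GABP, on either strand. In SDHD and in ATP5MC2 the run CGCATGCG holds the NRF1 core on both strands, and those matches overlap. All the promoters shown hold a marked core. Those of NDUFB6 and NDUFA8, called lower, and of NDUFA10, NDUFAF7 and NDUFV3, called higher, hold neither core and are not shown.
SDHD: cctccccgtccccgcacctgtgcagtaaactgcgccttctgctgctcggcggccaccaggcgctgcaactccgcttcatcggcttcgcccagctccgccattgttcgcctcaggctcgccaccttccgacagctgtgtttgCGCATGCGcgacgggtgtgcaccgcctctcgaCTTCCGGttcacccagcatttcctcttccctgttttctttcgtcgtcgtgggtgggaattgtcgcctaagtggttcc
NDUFA6: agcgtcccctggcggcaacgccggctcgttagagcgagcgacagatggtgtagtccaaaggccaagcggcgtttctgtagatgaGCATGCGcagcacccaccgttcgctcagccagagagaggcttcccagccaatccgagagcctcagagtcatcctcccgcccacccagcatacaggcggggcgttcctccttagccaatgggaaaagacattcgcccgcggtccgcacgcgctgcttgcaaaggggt
ATP5MC2: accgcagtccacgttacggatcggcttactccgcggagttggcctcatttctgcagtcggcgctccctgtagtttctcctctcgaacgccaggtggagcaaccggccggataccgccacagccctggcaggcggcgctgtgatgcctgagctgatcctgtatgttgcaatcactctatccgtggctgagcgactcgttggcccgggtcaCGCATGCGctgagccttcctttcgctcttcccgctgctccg
COX10: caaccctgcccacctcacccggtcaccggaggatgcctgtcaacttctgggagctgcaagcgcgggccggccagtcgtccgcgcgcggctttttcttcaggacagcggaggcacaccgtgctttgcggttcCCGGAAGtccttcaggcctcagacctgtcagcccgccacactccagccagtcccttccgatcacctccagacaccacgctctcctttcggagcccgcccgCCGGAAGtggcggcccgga
Over the 79 tested members with a promoter, GCATGCG or its reverse complement was present in 13 (16.5%), against 3.57% of all 27305 promoters in the table, which include those of non-coding genes. CCGGAAG was present in 19 of the 79 (24.1%), against 8.82% of all promoters. Among members called lower at 72 h, 5 of 22 promoters held the NRF1 core and 7 of 22 the ETS core. Among those called higher, 1 of 18 held the NRF1 core and 2 of 18 the ETS core. The YY1 core AAGATGG was in none of the 22 and in 2 of the 18, the CCAAT box (CCAAT) in 6 of 22 and 7 of 18, and the GC box (GGGCGG) in 14 of 22 and 9 of 18. These matches describe letters in a window and were not tested.

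The transcripts of the pathway moved late and by small amounts. At 8 h no member was called in either direction, where 0.450% of all genes tested were, and 1 had an unadjusted p under 0.05. At 24 h 2 were called, both lower, against 13.5% of all genes (5.72% lower), and 1 of them was lost without the first 0 h array and both without the third 24 h array. After quantile normalisation 3 were called higher and 2 lower at 24 h, and after median centring 0 and 3. At 48 h 18 rose and 11 fell, which is 30.5% of the members, against 44.0% of all genes (26.3% higher and 17.7% lower). At 72 h 19 rose and 25 fell, which is 46.3%, against 55.5% of all genes (32.8% higher and 22.7% lower). A moderated F test over the 5 times called 40 of the 95, against 57.0% of all genes. The share of members called was below the share of all genes at each of the 4 later times, a description with no test of the difference. Of the 11 members called lower at 48 h, 10 were also called lower at 72 h, and 13 of the 18 higher ones were also called higher, comparisons that share the 0 h arrays. No member was called in opposite directions at any 2 times, and 45 were called at none.

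The changes were small. At 72 h the median absolute log2 change was 0.19 over the members and 0.34 over all genes. No member's tested probe set moved by more than 1 on the log2 scale at any time, while 1212 genes (10.3%) did so at 72 h. The members' changes at 72 h ran from -0.73 for NDUFA6 to 0.71 for COX19. Of the members, 10, NDUFB2-AS1 included, were called with a change over 0.5, against 33.7% of all genes. The signed median was -0.01 over the members and 0.10 over all genes.

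**Figure D1:**
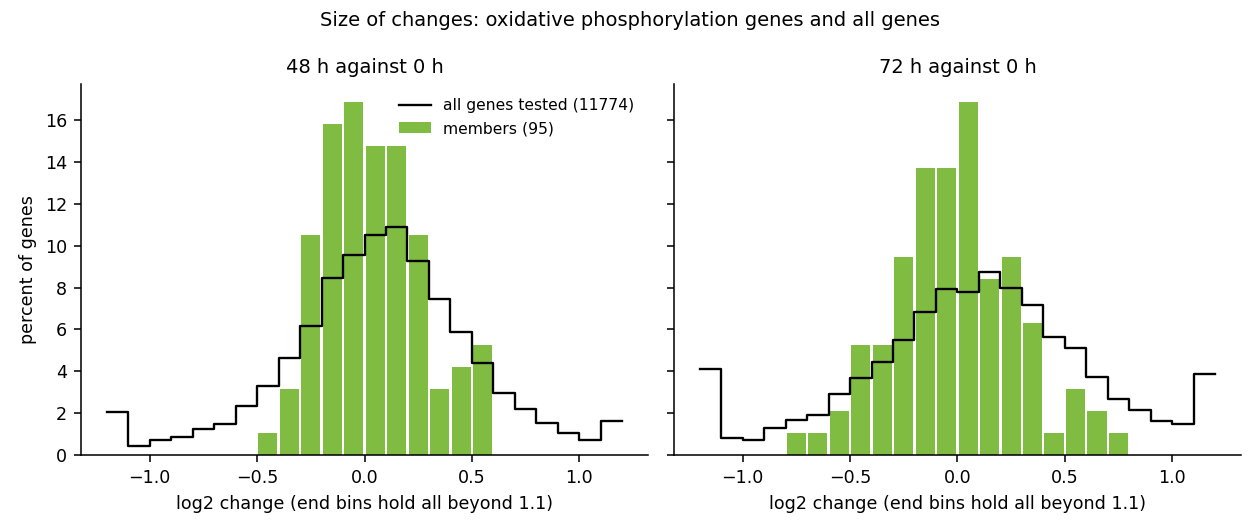
Share of the 95 members (bars) and of all 11774 genes tested (line) by log2 change at 48 h (left) and 72 h (right) against 0 h, in bins of 0.1. The members lie close to 0 and none is in the end bins, which collect all genes beyond 1.1 in either direction.

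The balance of rises and falls depended on how the arrays were scaled. With values as deposited, 19 rose and 25 fell at 72 h. After quantile normalisation 32 rose and 17 fell, and after median centring of the arrays 10 rose and 34 fell. At 48 h the split was 18 and 11 as deposited, 30 and 6 after quantile normalisation and 9 and 24 after centring. The scalings also move the median change of all genes at 72 h, which was 0.10 as deposited, 0.05 after quantile normalisation and -0.01 after centring. The members' median was -0.01, 0.06 and -0.12 in the same order of scalings. A direction of the pathway as a whole is therefore not given. Of the 44 members called at 72 h, 10 of the 19 higher and 15 of the 25 lower were called in the same direction under both other scalings. NDUFB2-AS1 is among those 10.

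Complex I is the NADH dehydrogenase and the largest complex, and it held 14 of the 25 falls at 72 h as deposited, 8 of 17 after quantile normalisation and 19 of 34 after centring. Of its 33 subunits tested, 14 fell and 6 rose at 72 h, with a median change of -0.16, against 0.10 over all genes, of which 22.7% fell and 32.8% rose. Of the 37 subunits of complexes III, IV and V, 4 fell and 8 rose, with a median of 0.06. That set was not among the planned comparisons. Over all 59 protein-coding members outside the complex I subunits, which add complex II, the assembly factors and ATP5IF1, 11 fell and 12 rose. Their median was 0.03. Of all genes, 23.6% fell and 30.2% rose after quantile normalisation, and 27.5% fell and 23.4% rose after centring. Quantile normalisation gave 8 falls and 8 rises in complex I and 3 falls and 19 rises in complexes III to V, and centring gave 19 and 3 in complex I and 6 and 3 in complexes III to V. In each of the 3 scalings the median of complex I lay below that of complexes III to V, at -0.06 against 0.16 after quantile normalisation and at -0.28 against -0.05 after centring.

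The offset between the complexes was read on each array as the mean over the complex I subunits minus the mean over the subunits of complexes III to V, relative to the 0 h mean. With values as deposited it was -0.04 to 0.03 at 0 h, -0.03 to 0.04 at 8 h, -0.08 to -0.05 at 24 h, -0.15 to -0.11 at 48 h and -0.21 to -0.14 at 72 h. All arrays from 24 h on lay below all arrays at 0 h and 8 h, by a small margin at 24 h. With the probe sets of each gene averaged, the median change at 24 h was -0.02 in both sets. At 72 h it was then -0.12 in complex I and 0.07 in complexes III to V. Centring leaves this offset as it is, and after quantile normalisation it was -0.17 to -0.12 at 72 h, against -0.01 to 0.01 at 0 h. It is a description of these genes, and no test was made of it.

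**Figure D2:**
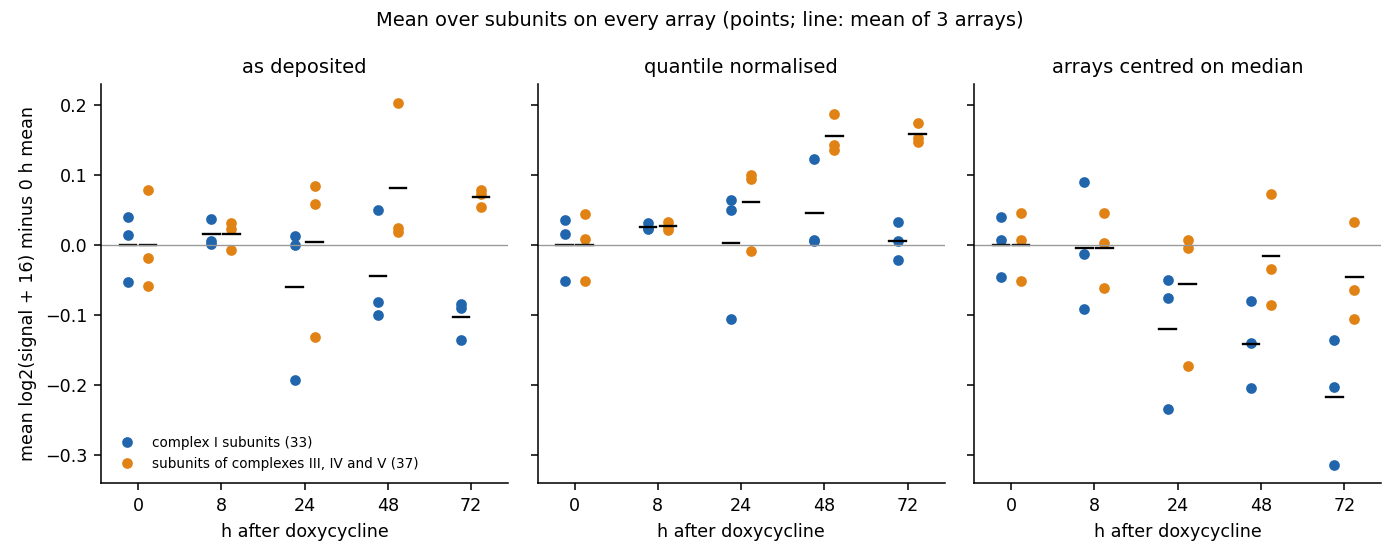
Mean log2(signal + 16) over the 33 complex I subunits (blue) and the 37 subunits of complexes III, IV and V (orange) on each array, minus the 0 h mean, against hours after doxycycline, with 3 scalings side by side; short lines are means of 3 arrays. The blue mean lies below the orange one at 24, 48 and 72 h in all 3 panels, while the position of both against 0 differs between panels.

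Among the complex I subunits, NDUFA6 showed the greatest fall. NDUFA6 is an accessory subunit of the LYR family that sits where the peripheral arm meets the membrane arm. Its signal was 2259, 2154 and 2193 at 0 h, 1984, 2243 and 2246 at 8 h, 2034, 2071 and 1715 at 24 h, 1672, 1541 and 1605 at 48 h and 1301, 1343 and 1313 at 72 h. The 72 h arrays lay below the 48 h arrays, and these below every earlier array. The log2 change was -0.73 ± 0.08 (SE) at 72 h (adjusted p = 2.3e-07), and each of the last steps was called, -0.27 at 48 h against 24 h and -0.28 at 72 h against 48 h. Its other probe set, at 105.0 at 72 h and 252.8 at 0 h, fell by 1.14, the greatest change of any member probe set.

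NDUFS1, the largest core subunit and carrier of iron-sulphur clusters in the NADH-oxidising module, fell as well. Its signal was 673, 695 and 697 at 0 h, 724, 669 and 694 at 8 h, 626, 671 and 704 at 24 h, 534, 525 and 560 at 48 h and 447, 510 and 531 at 72 h. The 48 h and 72 h arrays lay below all arrays up to 24 h. It fell by 0.34 at 48 h and by 0.46 ± 0.08 at 72 h (adjusted p = 4.5e-05). Of its 5 probe sets, a further one was called lower (-0.47), and the mean over all 5 was not called. NDUFS3, another core subunit, fell by 0.24 at 72 h, although it was not called after quantile normalisation, without the first 0 h array or without the second 72 h array. NDUFV1, which holds the flavin that accepts electrons from NADH, changed by 0.07 and was not called.

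NDUFB9, a LYR subunit of the membrane arm, was lower from 24 h. Its signal was 2387, 2268 and 2371 at 0 h, 2408, 2425 and 2516 at 8 h, 2012, 1979 and 1699 at 24 h, 1938, 1700 and 1727 at 48 h and 1760, 1712 and 1844 at 72 h. Every array from 24 h on lay below every array at 0 h and 8 h. The change was -0.31 at 24 h (adjusted p = 0.0098), -0.39 at 48 h and -0.40 at 72 h, and the change at 24 h against 8 h was -0.37 (adjusted p = 0.0055). Without the third 24 h array it was not called at 24 h. That array read low for most of the pathway: 76 of the 95 members had their lowest 24 h value on it.

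Further falls came from subunits of the membrane arm and its edge. NDUFB10 had 1140, 1069 and 1038 at 72 h, against 1572, 1621 and 1391 at 0 h, a change of -0.49 ± 0.10 (adjusted p = 0.00033), and its 72 h arrays lay below all 3 at 0 h. NDUFB6 had 835, 847 and 702 at 72 h, against 1145, 1102 and 1092 at 0 h, a change of -0.48, most of it in the step from 48 h (-0.32). NDUFA1, a small membrane-anchored subunit encoded on the X chromosome, had 891, 910 and 1066 at 72 h, against 1202, 1269 and 1324 at 0 h, a change of -0.40. For each of these 3 the groups did not overlap. NDUFA8 (-0.37), a subunit facing the intermembrane space, and NDUFB2 (-0.33) also fell. Of the 3 NDUFB2 probe sets past the filter, a further one fell by 0.72 and the last stood at -0.0003 and was not called. NDUFB11 was called lower at 48 h (-0.22) and not at 72 h (-0.19), and the 48 h call was lost without any one of the 0 h arrays or the second or the third 48 h array. The other falls called at 72 h lay between -0.24 and -0.16. The smallest, NDUFS6, stood at 0.02 after quantile normalisation and was not called there.

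A smaller set of complex I subunits rose. NDUFA10, an accessory subunit with the fold of a nucleoside kinase, had 627, 662 and 551 at 0 h, 601, 623 and 584 at 8 h, 676, 640 and 652 at 24 h, 896, 846 and 853 at 48 h and 955, 990 and 882 at 72 h. Its 48 h and 72 h arrays lay above all earlier ones. It rose by 0.49 at 48 h and by 0.61 ± 0.07 at 72 h (adjusted p = 2e-06), with a step of 0.39 from 24 h to 48 h. The other NDUFA10 probe set past the filter changed by 0.13 at 48 h and 0.10 at 72 h and was called at neither time. NDUFA3 rose by 0.56 at 48 h and 0.37 at 72 h, NDUFB1 by 0.27 and 0.33, and NDUFB8, a membrane arm subunit often used as a protein marker of assembled complex I, by 0.24 at 72 h. NDUFA3 and NDUFB8 were not called at 72 h after centring or without the third 0 h array. NDUFB1 has a dim second probe set that ran the other way and was not called (-0.25 at 48 h and -0.22 at 72 h), and with the probe sets averaged it was not called at either time. NDUFB1 was also not called at 48 h without the third 0 h or the first 48 h array. NDUFA9, near the coenzyme Q site, changed by 0.03 and was not called.

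**Figure D3:**
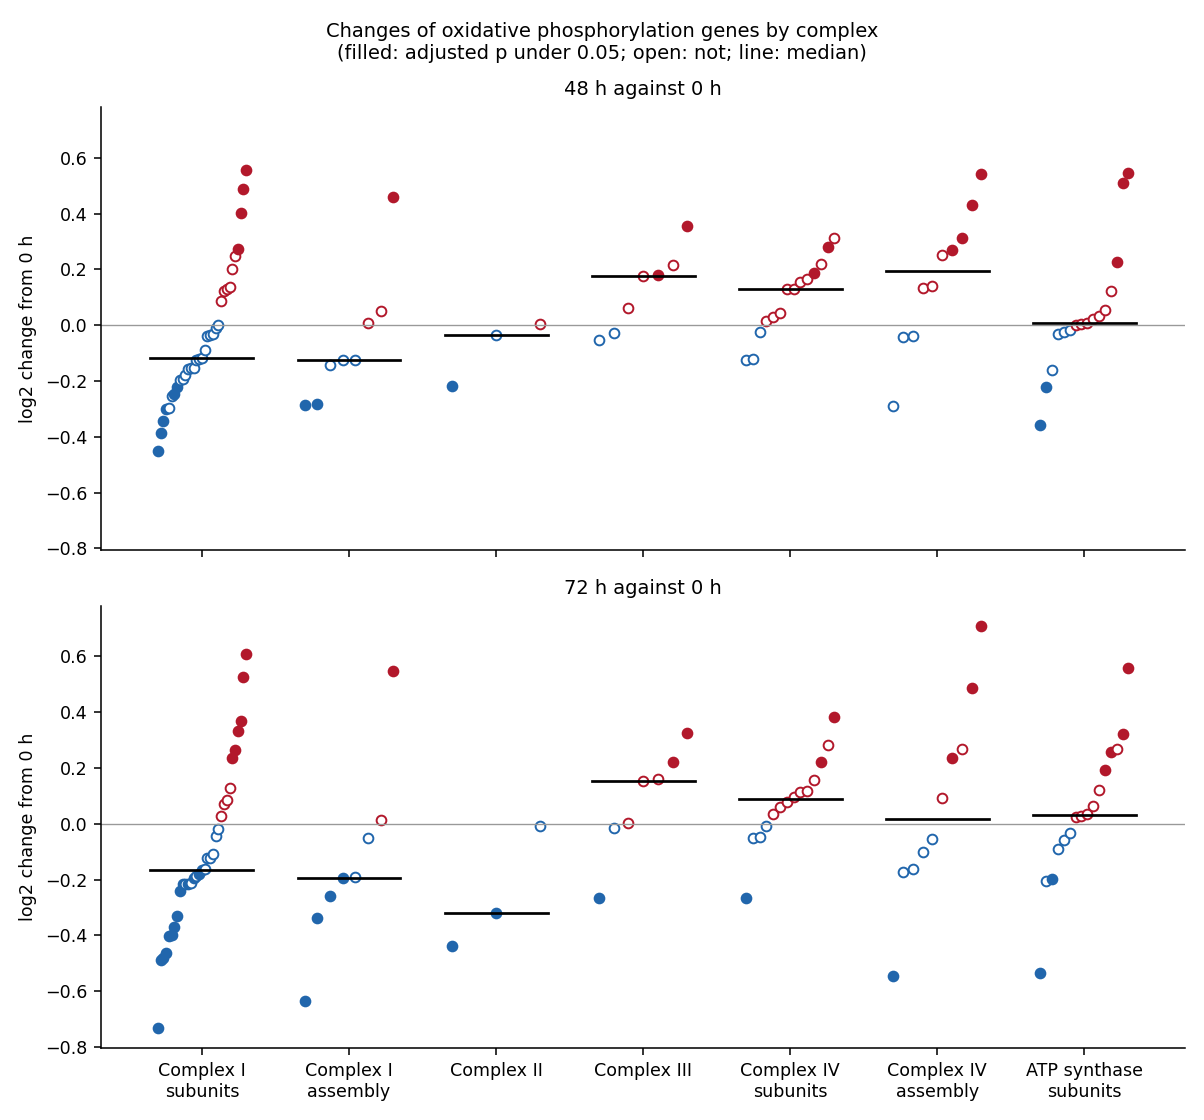
Log2 change of each tested subunit and assembly factor at 48 h (top) and 72 h (bottom) against 0 h, grouped by complex, with values as deposited. Filled points have an adjusted p under 0.05, open points do not, and lines are medians; at 72 h the complex I subunits run from -0.73 to 0.61 with a median of -0.16, and complex III has a median of 0.15.

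NDUFA7, an accessory subunit of the peripheral arm, rose and came back. Its signal was 322, 308 and 252 at 0 h, 312, 328 and 324 at 8 h, 330, 387 and 317 at 24 h, 474, 370 and 341 at 48 h and 286, 296 and 283 at 72 h. The 48 h arrays lay above all at 0 h, and the 72 h arrays lay within the 0 h range. The change was 0.40 at 48 h (adjusted p = 0.0076) and -0.02 at 72 h, and 72 h differed from 48 h by -0.42 ± 0.11 (adjusted p = 0.023). The 48 h call was lost without the first 48 h array or the third 0 h array.

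Of 8 complex I assembly factors tested, 4 fell and 1 rose at 72 h. NDUFAF3, which works with NDUFAF4 on the arm that holds the coenzyme Q site, had 424, 394 and 374 at 0 h, 429, 444 and 429 at 8 h, 462, 463 and 337 at 24 h, 347, 375 and 366 at 48 h and 272, 255 and 223 at 72 h. Its 72 h arrays lay below every other array. The change at 72 h was -0.64 ± 0.11 (adjusted p = 6e-05), and the step from 48 h alone was -0.51. NDUFAF4 was lower at 48 h (-0.28) and at 72 h (-0.34), NDUFAF6 by -0.28 and -0.26, and NDUFAF2 by -0.20 at 72 h. NDUFAF4 was not called at 72 h without the first 72 h array or when its probe sets were averaged. NDUFAF6 was not called at 72 h without the first or second 0 h array or the first or the third 72 h array. NDUFAF7, an arginine methyltransferase that modifies a core subunit, had 421, 448 and 469 at 72 h, against 293, 296 and 311 at 0 h, a change of 0.55 ± 0.08 (adjusted p = 1.5e-05). It stood at -0.03 at 24 h, and the step to 48 h was 0.48. NDUFAF1 changed by -0.05 and was not called.

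Complex II, the succinate dehydrogenase that joins the citric acid cycle to the chain, was represented by 3 genes. SDHD, a membrane anchor subunit, had 472, 476 and 492 at 0 h, 496, 439 and 456 at 8 h, 387, 474 and 412 at 24 h, 413, 391 and 427 at 48 h and 349, 373 and 329 at 72 h. Its 48 h and 72 h arrays lay below all 3 at 0 h, and it fell by 0.22 at 48 h and by 0.44 ± 0.08 at 72 h (adjusted p = 0.00024). The 48 h call was lost without any one of the 6 arrays of 0 h and 48 h. SDHC, the other membrane anchor, changed by -0.32 at 72 h and was called lower, although not after quantile normalisation and with other probe sets that went the opposite way, as given below. SDHA, the flavoprotein subunit, changed by -0.01 and was not called.

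Complex III held 2 rises and 1 fall among 7 subunits at 72 h. UQCRC2, a core subunit, had 1797, 1840 and 1584 at 72 h, against 1533, 1397 and 1237 at 0 h, a change of 0.32 ± 0.09 (adjusted p = 0.0039), with a step of 0.32 from 24 h to 48 h. UQCRC2 was not called at 72 h with its 3 probe sets averaged, of which the dim one stood at -0.02. UQCRB, which helps form the coenzyme Q site, rose by 0.22 and was not called after centring. UQCRQ fell by 0.27 and was not called after quantile normalisation. UQCRC1, the partner of UQCRC2, changed by 0.00, and CYC1, the cytochrome that passes electrons to cytochrome c, by -0.01, and neither was called.

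Most subunits of complex IV, cytochrome c oxidase, were not called: 11 of 14 at 72 h. COX7C rose, with 3266, 3184 and 3381 at 0 h, 3196, 3338 and 3258 at 8 h, 3669, 3509 and 3082 at 24 h, 4421, 3593 and 3974 at 48 h and 4180, 4257 and 4397 at 72 h. Its arrays at 48 h and 72 h lay above all 3 at 0 h, and the change was 0.38 ± 0.08 at 72 h (adjusted p = 0.00041). COX5B was higher at 48 h (0.19), although not without the second or the third 0 h array or the first or the third 48 h array, and was not called at 72 h (0.04). COX4I1, the regulatory subunit found in most tissues, changed by 0.12, COX5A by -0.05 and COX7A2 by 0.11, none of them called. The other COX5A probe set past the filter was called lower at 72 h (-0.48). The mitochondrially encoded COX1, COX2 and COX3, which form the catalytic core, changed by 0.08, 0.06 and -0.01 and were not called, with COX1 at 9301 ± 625 at 72 h and 8824 ± 825 at 0 h (SD, n = 3 each). The highest signal on an array averaged 10150 at 72 h and 8933 at 0 h. COX1 and COX2 (9211 and 8831) lay near it, so a rise in them might not show. The tissue isoforms COX4I2, COX6A2 and COX7A1 were dim: COX4I2 ran from 15.1 to 45.9 over the 15 arrays and was not called, and COX6A2 (12.3 and 13.0) and COX7A1 (2.63 and 1.03) did not pass the filter, nor did COX6B2, COX7B2 and COX8C.

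The assembly factors of complex IV included the greatest rise. COX19, a protein of the intermembrane space with a role in copper delivery, had 34.7, 36.2 and 37.8 at 0 h, 32.2, 33.6 and 40.3 at 8 h, 29.9, 28.3 and 43.2 at 24 h, 53.9, 50.6 and 59.1 at 48 h and 69.8, 70.0 and 68.3 at 72 h. Its 72 h arrays lay above every other array. It rose by 0.43 at 48 h and by 0.71 ± 0.13 at 72 h (adjusted p = 0.00015). The other COX19 probe set past the filter stood at -0.22 at 48 h and 0.28 at 72 h and was called at neither time. COX10, the farnesyltransferase of haem A synthesis, had 169.5, 177.4 and 185.4 at 72 h, against 111.4, 123.2 and 132.5 at 0 h, a change of 0.49 ± 0.10 (adjusted p = 0.00048). COX15, the next enzyme of that synthesis, changed by 0.09 and was not called. COX7A2L, which joins complexes III and IV into supercomplexes, was higher by 0.27 at 48 h and 0.24 at 72 h, although not after centring at 72 h. COX20, a chaperone of COX2, was higher at 48 h (0.54), although not without the third 0 h array or the first or second 48 h array, and was not called at 72 h (0.27). COX14, which couples COX1 synthesis to assembly, went the other way, with 196, 217 and 255 at 72 h, against 342, 329 and 322 at 0 h, a change of -0.55 ± 0.13 (adjusted p = 0.0015). The single-gene probe set of COX17, the copper chaperone, was dim (26.7 on average at 72 h and 30.7 at 0 h) and not called.

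**Figure D4:**
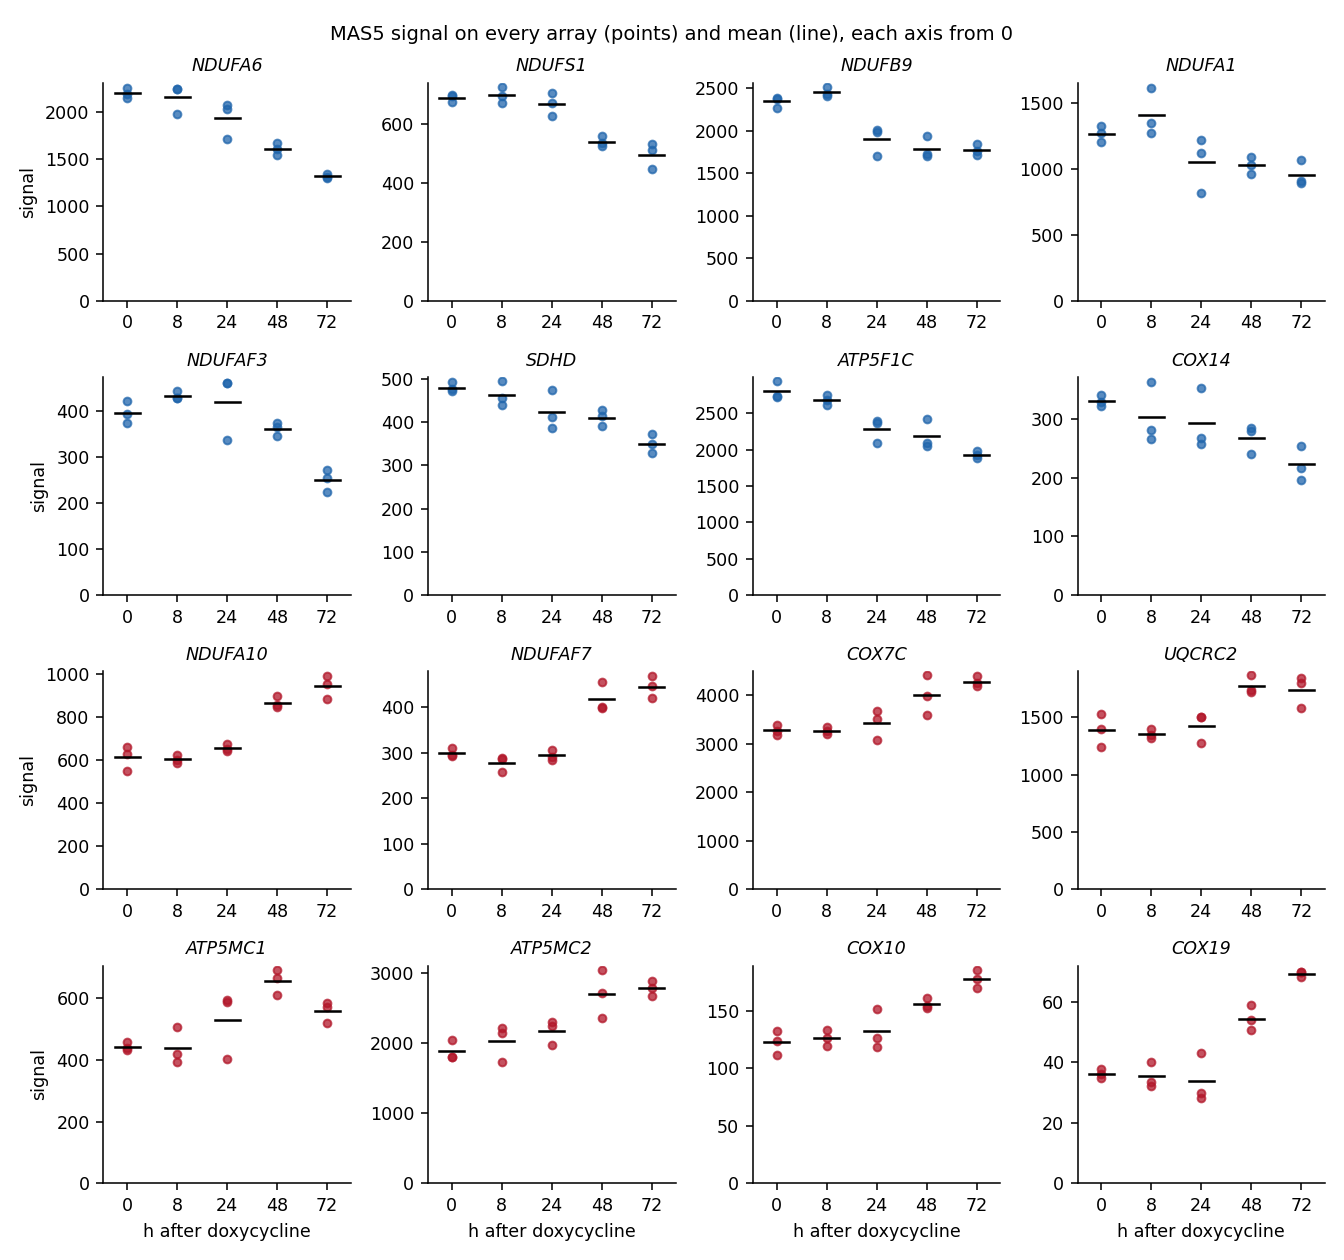
MAS5 signal of 16 members on every array (points) with the mean of 3 arrays (lines), against hours after doxycycline; each vertical axis starts at 0. The 8 members in blue were called lower at 72 h and the 8 in red higher, with NDUFA6 at 1301 to 1343 at 72 h and 2154 to 2259 at 0 h.

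In ATP synthase, 4 of 16 subunits rose and 2 fell at 72 h. ATP5F1C, the gamma subunit that forms the rotating shaft, had 2943, 2738 and 2728 at 0 h, 2607, 2750 and 2678 at 8 h, 2364, 2391 and 2092 at 24 h, 2428, 2046 and 2092 at 48 h and 1880, 1926 and 1983 at 72 h. All arrays from 24 h on lay below all at 0 h. The change was -0.30 at 24 h (adjusted p = 0.013), -0.36 at 48 h and -0.53 ± 0.07 at 72 h (adjusted p = 8e-06). It was not called at 24 h without the third 24 h array or the first 0 h array. ATP5F1E, the epsilon subunit of the same shaft, was lower at 48 h (-0.22) and 72 h (-0.20), although at neither without the first 0 h array, while ATP5F1A and ATP5F1B, which form the catalytic ring, changed by 0.26, called higher, and by 0.03, not called. ATP5F1A was not called after centring.

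The c subunit of the rotor ring is encoded by 3 genes that give the same mature protein, and their tested probe sets did not move together. ATP5MC2 had 2050, 1805 and 1803 at 0 h, 2219, 2147 and 1730 at 8 h, 2307, 2247 and 1968 at 24 h, 3041, 2355 and 2712 at 48 h and 2890, 2779 and 2677 at 72 h, a change of 0.56 ± 0.10 at 72 h (adjusted p = 0.00015). ATP5MC1 had 439, 458 and 433 at 0 h, 419, 507 and 393 at 8 h, 587, 594 and 405 at 24 h, 691, 664 and 609 at 48 h and 584, 572 and 520 at 72 h, a change of 0.55 at 48 h and 0.32 at 72 h. Both lay above all their 0 h arrays at 48 h and 72 h. ATP5MC3 had 2785, 2867 and 2921 at 72 h, against 3613, 3148 and 3144 at 0 h, a change of -0.20 that was not called (adjusted p = 0.072). The 3 ATP5MC3 probe sets past the filter disagreed, from -0.26 to 0.28 at 72 h, with 1 called lower and 0 higher. ATP5MC1 was not called at 72 h after centring or without any one of the 3 arrays at 0 h or the first or second at 72 h. ATP5PO, the stalk subunit known as OSCP, changed by 0.02 and was not called, and ATP5IF1, which blocks reverse rotation, was higher at 48 h (0.22), although not without any one of the arrays of 0 h and 48 h, and was not called at 72 h (0.10).

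Between neighbouring times, the members called were few except from 24 h to 48 h. At 24 h against 8 h 2 fell, NDUFB9 and NDUFA1 (-0.43), against 5.78% of all genes called (3.24% lower), and 1 of these was lost without the first or the third 8 h array or without the third 24 h array. At 48 h against 24 h 11 rose and 3 fell, which is 14.7% of the members, against 22.9% of all genes (12.4% higher and 10.5% lower). The excess of rises was smaller without either of 2 arrays: 7 rose and 6 fell without the third 24 h array, and 7 rose and 5 fell without the first 48 h array. The members' median was 0.04 with all arrays, 0.00 without that 24 h array and 0.00 without that 48 h array. The falls were NDUFS1 (-0.30), NDUFA6 and ATP5F1E (-0.20), and the greatest rises were the pseudogene ATP5MC2P1 (0.60), COX19 (0.51), NDUFA3 (0.51) and COX20 (0.51). ATP5MC2 itself rose by 0.31 at this step, and whether the ATP5MC2P1 probes also read ATP5MC2 was not examined. At 72 h against 48 h 1 rose and 4 fell, against 10.7% of all genes (4.54% higher and 6.14% lower). NDUFAF3, NDUFA7, NDUFB6 and NDUFA6 fell, and the call that was higher is NDUFB2-AS1, an antisense transcript. Its signal was 39.6, 35.5 and 30.2 at 72 h, against 5.6, 19.6 and 23.4 at 48 h, a 48 h mean under the filter's signal of 16.6, so it rests on the 72 h arrays and no size is given. Which strand its probes read was not examined. With the replicate number as a block, this last step had 8 calls, 2 higher and 6 lower. Counts at the step to 72 h went down to 1 without the third 72 h array, 2 without the first 48 h array and 3 without the first 72 h array.

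Different probe sets of a gene did not always move together. Of 44 members with several probe sets past the filter, 23 were called at 72 h, 12 of them with a further probe set called the same way and 11 without. In 5 genes probe sets were called in opposite directions at 72 h. For ATP5F1C, 3 bright probe sets, at 1731 to 1930 at 72 h and 2424 to 2803 at 0 h, fell by 0.48 to 0.53, and a dim one, at 147.2 and 90.5, rose by 0.58. For SDHC, 3 of 4 bright probe sets fell by 0.32 to 0.43 and a dim one, at 83.6 and 47.5, rose by 0.63. For NDUFB4 the bright probe set fell by 0.21 and a dim one, at 42.8 and 22.3, rose by 0.61. For NDUFV3, a subunit known to be made in a long and a short form, the direction was the other way round: the bright probe set, at 1066 and 731.5, rose by 0.52 and the dim one, at 30.1 and 53.6, fell by 0.57. COX11, which delivers copper to complex IV, was not called by its brightest probe set (-0.10), while a dim one rose (0.43) and another fell (-0.38). The transcripts that each of these probe sets reads were not examined.

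**Figure D5:**
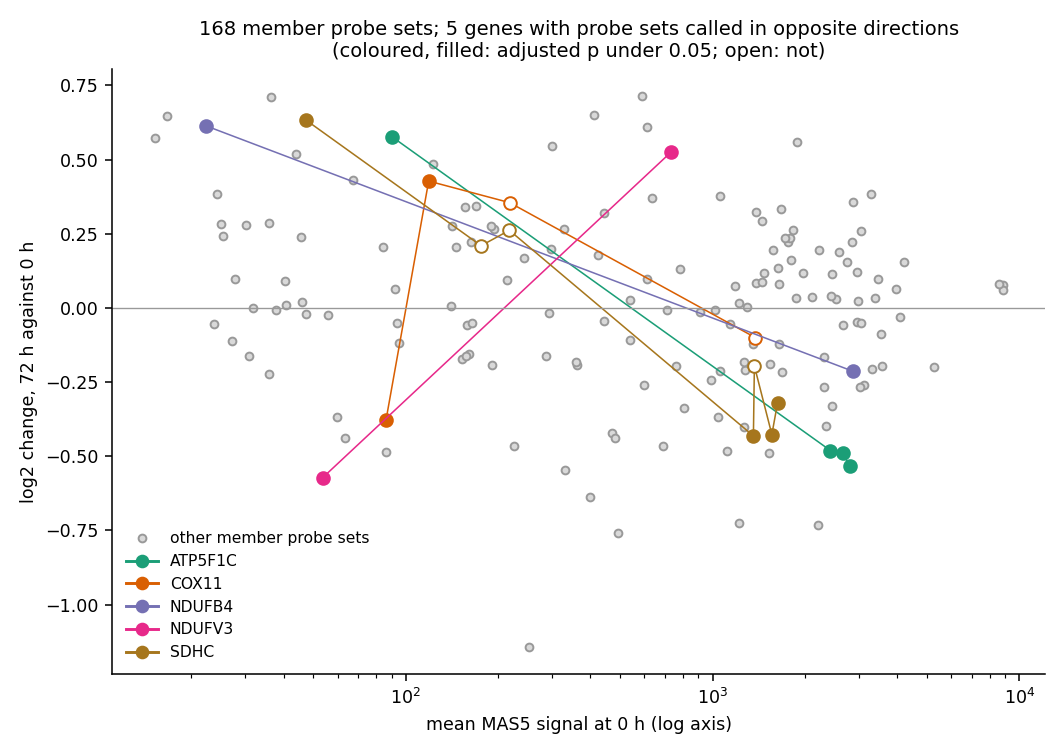
Log2 change at 72 h against 0 h of the 168 member probe sets past the filter, against their mean signal at 0 h on a log axis. Coloured points joined by lines are the probe sets of the 5 genes called in opposite directions (filled: adjusted p under 0.05); in ATP5F1C, SDHC and NDUFB4 the bright probe sets lie below 0 and a dim one above, and in NDUFV3 the reverse.

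Genes that work beside the complexes included greater changes than any member. Of 45 assembly factors outside the naming rule, 12 rose and 10 fell at 72 h, with a median of -0.03. PET117, an assembly factor of complex IV, averaged 124.0 ± 10.2 at 72 h and 293.6 ± 44.4 at 0 h (SD, n = 3 each), a change of -1.14, and CMC2, a further complex IV factor, fell by 1.03. COA5, also a complex IV factor, rose by 0.74. Of 17 electron carriers and enzymes of coenzyme Q synthesis, 5 rose and 5 fell, with a median of 0.11: ETFA, a subunit of the electron transfer flavoprotein, fell by 1.46 and COQ2, a coenzyme Q synthesis enzyme, by 1.13, while COQ8A rose by 0.66.

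Among 13 genes of the citric acid cycle tested, 1 rose and 1 fell at 72 h, with a median of 0.01. The fall was IDH3A, the catalytic subunit of NAD-dependent isocitrate dehydrogenase, at 100.9 ± 7.15 at 72 h and 363.1 ± 4.41 at 0 h, a change of -1.70 that was already -0.76 at 8 h (adjusted p = 0.00046). Of 19 genes of mitochondrial import and the outer membrane, 10 fell and 1 rose, with a median of -0.28, led by TOMM20, an import receptor, which fell by 1.76 and was lower at 8 h (-0.74). Of 16 regulators of mitochondrial gene expression, 2 rose and 5 fell, with a median of 0.12: ESRRA, a nuclear receptor that acts on genes of this pathway, rose by 0.91, while TFAM, the packaging factor of mitochondrial DNA, fell by 0.78 and GABPB1, a subunit of GABP, by 0.55. None of the 7 mitochondrially encoded subunits tested was called, with a median of 0.03. COX1 and COX2 among them lay near the highest signal of the arrays, as given above. Over all genes tested, the median at 72 h was 0.10, and 32.8% rose and 22.7% fell.

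The 3′ to 5′ signal ratio averaged 1.26 at 72 h and 1.14 at 0 h for ACTB and 1.02 and 1.01 for GAPDH, and the part of these ratios in the results was not tested. The count at 48 h was 17 of 95 without the third 0 h array, against 29 with all arrays, and at 72 h it was 33 to 46 with any one array of these times left out.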

How the data were processed

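Total RNA was hybridised to 15 single-colour arrays, 3 at each of 5 times. The deposited values are MAS5 signals, an intensity per probe set on a linear scale, made by the authors with MAS5 and GCOS, per the submitters' processing notes, which give no versions. A mean trimmed by 2% at each end was 100.01 on every array. Probe sets were named from GEO's platform annotation with symbols updated to RefSeq: 41091 of 54675 have 1 gene, 1801 several and 11721 none. An array's background limits precision at low signal.

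From these values log2(signal + 16) was computed and fitted with limma 3.58.1 in R 4.3.3 (lmFit, eBayes with a trend), with all 15 arrays in 1 model and no covariate. Probe sets with a mean under the median of all non-control probe sets (a signal of 16.6) were left out, and the brightest of each gene was kept, which gave 11774 genes. p-values are two-sided, and Benjamini-Hochberg adjustment ran over all of them with a threshold of 0.05. Summaries used Python 3.11.15 with pandas 2.3.3.

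The members and lists were chosen with earlier results of these data known. Members are named where called at 8 h or 24 h, among the greatest changes at a step, among the 12 greatest rises or falls at 48 h or 72 h with arrays that do not overlap those at 0 h, as chosen sentinels, or where probe sets were called in opposite directions. NDUFS3, NDUFS6, NDUFAF2, UQCRB and UQCRQ were named after their values were seen, to complete the counts or their limits. Alternatives changed the scaling, pseudocount, filter, choice of probe set, variance model, replicate block and arrays used. The same replicate number recurs at every time. Residuals of same-numbered arrays from different times correlated at -0.08 to 0.35, with a median of 0.12. Those of differently numbered arrays correlated at -0.28 to 0.17, with a median of -0.08. The same-numbered arrays thus tended to be more alike, but not in every pair. The numbers were not taken to pair the samples at all times, and counts with the number as a block are given below.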

Additional observations from a re-analysis of the deposited data

Results flagged for a closer look

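NDUFA7 stood out because its changes ran in opposite directions over the later times. It was called higher at 48 h against 0 h (0.40), and the difference at 72 h against 48 h was itself tested and was -0.42 ± 0.11 (adjusted p = 0.023, limma). The groups overlapped at 72 h and 0 h.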

How the results depend on the processing

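Counts of members called kept within 1.5 times the reported ones in 144 of 184 recomputations. At 24 h (2 calls) the count was 5 after quantile normalisation or with only the groups compared, 6 with all probe sets tested singly, with array weights or with the replicate block, 1 without probe sets shared between transcripts (_x_at and _s_at), with replicates 1 and 2 alone or at a threshold of 0.01, and 4 without the third 8 h and 72 h arrays. At 48 h (29) it was 44 with all probe sets, 46 with array weights and 14 at 0.01, and at 72 h (44) 26 at 0.01. At 24 h against 8 h (2) it was 4 with probe sets averaged, with all probe sets or with the block, and 1 after quantile normalisation, without the filter, without the variance trend, with only the groups compared, with replicates 1 and 2 alone, without the third arrays or at 0.01. At 48 h against 24 h (14) it was 22 after quantile normalisation and 6 at 0.01. At 72 h against 48 h (5) it was 8 with array weights or the block, 3 with only the groups compared, 2 without the third arrays and 1 at 0.01. Over the time course (40) it was 62 with all probe sets and 26 at 0.01. Leaving out 1 array gave 0 at 8 h, 1 to 3 at 24 h, 17 to 23 at 48 h, 33 to 46 at 72 h, 1 to 2 at 24 h against 8 h, 11 to 14 at 48 h against 24 h, 1 to 5 at 72 h against 48 h and 31 to 44 over the time course. The replicate block moved no other count by over 1.5 times (32 at 48 h, 48 at 72 h). The settings with replicates 1 and 2 alone and without the third 8 h and 72 h arrays were chosen after seeing the data.

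Among the named genes recomputed, 11 changes turned sign, all with another choice of probe set, and NDUFS6 turned sign after quantile normalisation (0.02 at 72 h). Without shared probe sets, ATP5F1C was 0.23 at 24 h, 0.67 at 48 h and 0.58 at 72 h, NDUFB1 -0.25 at 48 h and -0.22 at 72 h, and at 72 h COX11 was 0.43, NDUFB4 0.61, NDUFV3 -0.57 and SDHC 0.26. With probe sets averaged, NDUFB4 was 0.20 and NDUFV3 -0.024 at 72 h. Of the rest, 2352 stayed on their side of the threshold, 164 lost and 29 gained a call.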

Other observations

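Some probe sets name a member together with another gene and entered no comparison above. Of 12 such probe sets past the filter, 5 were called at 72 h, each lower. Of all 27307 probe sets past the filter, 46.4% were called at 72 h, 27.1% higher and 19.3% lower. The probe set shared by NDUFC2 and the read-through gene NDUFC2-KCTD14 averaged 2145 at 72 h and 3133 at 0 h, a change of -0.54. The probe set shared by NDUFS5 and RPL10, a ribosomal protein gene, averaged 2371 and 3366, a change of -0.50. The probe set shared by NDUFS3 and PTPMT1, a mitochondrial phosphatase gene, averaged 74.9 and 148.7, a change of -0.86, and the one shared by COX17 and POPDC2 averaged 714.0 and 877.4, a change of -0.29. The probe set shared by SDHA and its pseudogenes averaged 110.4 and 157.6, a change of -0.46, while the single-gene probe set of SDHA was not called. Which of the genes each probe set reads cannot be told apart here.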
